A study of Rattus norvegicus with 4 samples.

Results

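The 44 genes described here carry out or control DNA replication in S phase. They were taken by name from the series' table of 14410 genes, all 44 were found in it, and all 44 passed the filter on low values. RNA-seq had been carried out on CG4 cells, a rat line of oligodendrocyte progenitors that matures into oligodendrocytes when growth factors are withdrawn. The ctrl group (2 libraries) carried a CAG-IRES-GFP retrovirus, and the Phf8oe group (2 libraries) a CAG-Phf8-IRES-GFP retrovirus that adds the histone demethylase Phf8. In both vectors the insert stands behind the CAG promoter, the cells of both groups are otherwise wild type and GFP-positive by sorting, and both were expanded and then held for 3 days in differentiating medium. All libraries come from 1 cell line. The titles call the replicates biological without saying whether each was its own transduction, so adjusted p-values measure only the spread between these preparations.

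Replication starts with licensing. The origin recognition complex, Cdc6 and Cdt1 load the MCM helicase onto DNA, and Cdc45 and GINS then switch it on. DNA polymerases copy the strands with the sliding clamp Pcna, while ribonucleotide reductase and related enzymes supply nucleotides, and CAF-1 packs the new DNA into nucleosomes. E2F factors and cyclin E turn much of this program on at the end of G1. Oligodendrocyte progenitors leave the cell cycle as they differentiate, and replication genes are known to fall in that transition.

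Values are normalized counts per gene and library. A gene is said to have risen or fallen where limma's test on log2(value + 1) gave a Benjamini-Hochberg adjusted p under 0.05 over 14368 genes tested. Log2 fold changes are of Phf8oe over ctrl on that scale. Deposited totals lay between 39945215 and 41149255, and the ctrl libraries rested on an estimated 47800000 and 39300000 reads, the Phf8oe libraries on 43100000 and 28400000. Phf8 itself stood at 2026 and 2205 in ctrl and at 5650 and 10796 in Phf8oe (log2 fold change 1.89 with an SE of 0.35, limma adjusted p = 0.0631), so the Phf8oe library with the most Phf8 was also the shallowest. Sox10 (log2 fold change 0.11) and Olig2 (0.36), which mark the oligodendrocyte lineage, were present in all libraries at 61514 or more and 15146 or more, and neither passed the test. Mbp, a major myelin protein, rose (log2 fold change 0.86).

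Of the 44 replication genes, 5 rose in Phf8oe cells and 39 did not pass, and no member fell. The risers were E2f1, Ccne1, Pold1, Chaf1b and Dut, with changes between 1.4-fold and 1.61-fold. They make up 11.4% of the members, against 2.99% of all genes tested that were higher and 4.65% that were lower. At an unadjusted p under 0.05 there were 16 members, all of them higher, where 26.3% of all genes tested had such a p and 12.7% had it with Phf8oe higher. The log2 fold change lay above 0 in 41 of the 44 (93.2%), against 50.4% of all genes tested. Its median was 0.29 over the members and 0.00313 over all genes. Most members thus lay slightly higher, without passing the test one by one.

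**Figure D1:**
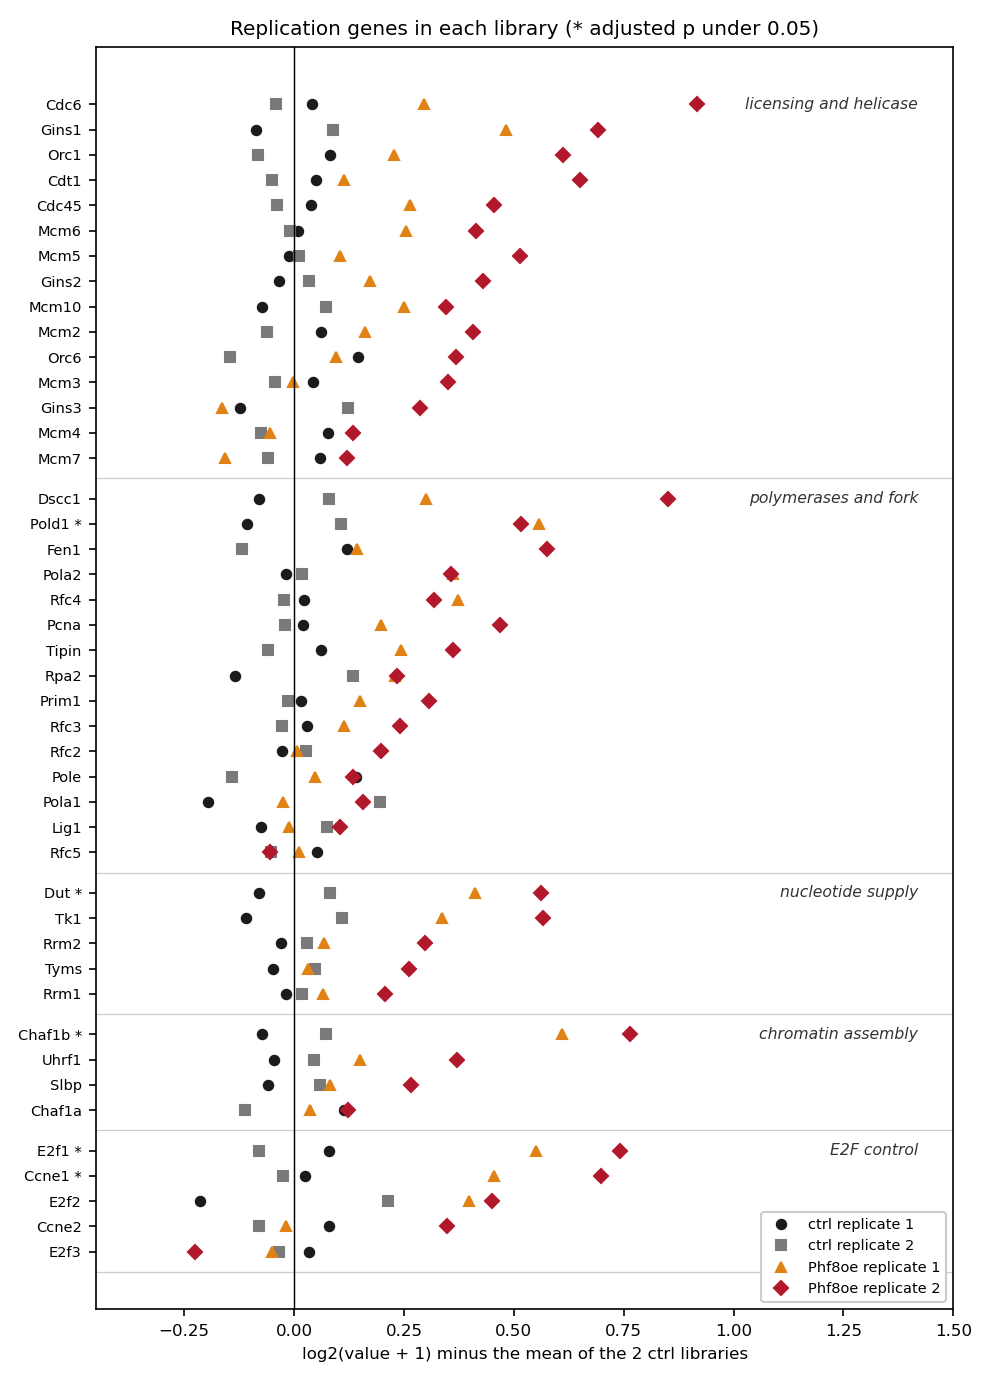
Each of the 44 genes in each library, as log2(value + 1) minus the mean of the 2 ctrl libraries, grouped by step and ordered by log2 fold change. Diamonds (Phf8oe replicate 2) are the rightmost symbol in 37 of 44 rows, and triangles (Phf8oe replicate 1) often lie close to the ctrl symbols, while an asterisk marks the 5 genes past the threshold.

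The 2 Phf8oe libraries did not share the shift equally. Phf8oe replicate 2 held the highest of the 4 values for 37 of 44 members (84.1%), against 25.8% of all genes tested, and it exceeded Phf8oe replicate 1 in 39 members (88.6%), against 50.4% of all genes. The median log2 difference from the ctrl mean was 0.15 in Phf8oe replicate 1 and 0.36 in Phf8oe replicate 2, and over all genes it was 0.00732 and 0.000789. The ctrl libraries, in contrast, differed by a median of -0.02 over the members (replicate 2 minus replicate 1). Together the members took 0.123% of the deposited values in each ctrl library, 0.133% in Phf8oe replicate 1 and 0.156% in Phf8oe replicate 2. Without Phf8oe replicate 2 in the fit, 3 members rose (Ccne1, Pold1 and Chaf1b), where 6.3% of all genes were called higher. Without Phf8oe replicate 1, 15 rose, where 4.66% of all genes were. The 10 added were Cdc6, Cdt1, Dscc1, Fen1, Gins1, Mcm2, Mcm5, Mcm6, Pcna and Tk1, and in that fit the single Phf8oe library is assumed to vary like the ctrl libraries. These bulk values cannot tell a larger share of cells in S phase from more replication RNA per cell.

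Licensing and helicase genes lay higher in Phf8oe by a median log2 fold change of 0.30. None of the 15 passed the test in limma or in limma-voom, where limma called 2.99% of all genes higher. Differences between the steps were not tested. At an unadjusted p under 0.05 there were 6 of 15, all of them higher. Of all genes tested, 12.7% had such a p with Phf8oe higher and 26.3% in either direction. In all 15, Phf8oe replicate 2 was the highest library, against 25.8% of all genes. The groups did not overlap, with Phf8oe higher, in 10 of the 15, where 28.9% of all genes tested showed this.

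Cdc6, the ATPase that joins the origin complex before the helicase is loaded, stood at 269 and 254 in ctrl and at 321 and 494 in Phf8oe. Both Phf8oe libraries lay above both ctrl libraries, but replicate 2 stood far above replicate 1, and the log2 fold change was 0.61 (SE 0.22, limma adjusted p = 0.122). For Cdt1, which brings the helicase to the origin, the ctrl libraries held 619 and 578 and the Phf8oe libraries 647 and 939. Here Phf8oe replicate 1 was little above ctrl, and only replicate 2 stood clear of it (log2 fold change 0.38 with an SE of 0.18, limma adjusted p = 0.225). Orc1, the largest subunit of the origin recognition complex, had 177 and 158 against 196 and 256 (log2 fold change 0.42, SE 0.21). Orc6, another subunit, had 504 and 412 against 487 and 589, with overlapping groups.

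The 6 subunits of the MCM helicase had log2 fold changes between -0.02 and 0.33, and none passed the test. Mcm2 to Mcm7 summed to 15535 and 14591 for the ctrl libraries and to 15302 and 18371 for the Phf8oe libraries. Phf8oe replicate 1 thus lay between the ctrl libraries, and Phf8oe replicate 2 above them all. Mcm6 had 2271 and 2243 against 2691 and 3007, the largest log2 fold change of the 6 subunits (0.33, SE 0.10, limma adjusted p = 0.0833). Mcm2 had 2695 and 2472 against 2888 and 3425 (log2 fold change 0.29, SE 0.12), and Mcm5 had 1654 and 1681 against 1792 and 2380 (0.31, SE 0.14). In these 3 subunits the groups did not overlap. They did in Mcm3 (1334 and 1257 against 1293 and 1652), Mcm4 (2172 and 1954 against 1982 and 2260) and Mcm7 (5409 and 4984 against 4656 and 5647). Log2 fold changes were 0.17, 0.04 and -0.02 for those 3, and that of Mcm7 turned to 0.02 when the libraries were scaled to one upper quartile. Differences between subunits were not tested. Mcm7 also hosts Mir25, Mir93 and Mir106b, which were counted as rows of their own with far lower values.

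Of the factors that switch the helicase on, none passed the test. Gins1, a GINS subunit, went from 232 and 262 to 345 and 399, with both Phf8oe libraries clear of ctrl (log2 fold change 0.59 with an SE of 0.18, limma adjusted p = 0.0734). Gins2 had 1140 and 1196 against 1317 and 1574 (0.30, SE 0.12). It overlaps Gse1, whose log2 fold change was 0.03, in the annotation of the GRCr8 assembly. All gene overlaps given here are from GRCr8, which is not the build the reads were counted on. Gins3 had 139 and 165 against 135 and 185, which overlap. Cdc45, which joins MCM and GINS in the active helicase, had 486 and 460 against 568 and 648 (0.36, SE 0.14). Mcm10, needed for that activation, had 529 and 585 against 662 and 707 (0.30, SE 0.14).

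E2F factors bind a short sequence in the promoters of many of these genes, and the letters TTTGGCGC, TTTGCCGC, TTTCGCGC and TTTCCCGC were searched on both strands. The search covered RefSeq windows on the GRCr8 assembly, from 250 bases before to 50 after each gene's start. A palindromic site matches on both strands and its matches overlap. Of 36 members with a window, 18 held at least 1 match (50%), against 4.16% of 9954 tested genes with a window and 2.37% of all 27457. By step, matches were found in 8 of 12 licensing and helicase genes, 6 of 14 polymerase and fork genes, 1 of 4 nucleotide genes, 2 of 4 chromatin assembly genes and 1 of 2 E2F control genes. Orc1, Cdc6, Mcm4, Dscc1, Rrm2, Ccne2, E2f1 and E2f2 have no window in the table. Stretches of 60 bases are given for 5 of the helicase genes that hold the motif, with the matches in capitals. Each reads 5′ to 3′ on the gene's own strand, and all but the Mcm6 stretch end just before the gene's start. Coordinates are GRCr8, which is not the build the reads were counted on.
Gins1 (chr3:160184860-160184919, + strand): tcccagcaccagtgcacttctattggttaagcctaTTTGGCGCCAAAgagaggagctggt
Mcm2 (chr4:122918095-122918154, - strand): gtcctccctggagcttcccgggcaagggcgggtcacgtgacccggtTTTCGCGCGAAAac
Mcm5 (chr19:13488753-13488812, + strand): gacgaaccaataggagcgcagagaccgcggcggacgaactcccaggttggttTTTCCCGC
Mcm6 (chr13:42404448-42404507, - strand): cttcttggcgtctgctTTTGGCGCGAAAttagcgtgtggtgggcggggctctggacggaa
Mcm7 (chr12:22163179-22163238, - strand): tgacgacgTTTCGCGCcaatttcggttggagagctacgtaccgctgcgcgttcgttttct
The capitals of Gins1 and Mcm2 read the same on both strands, and those of Mcm6 nearly so. Gins1 lay 0.59 higher on the log2 scale while Mcm2 lay 0.29 higher. Mcm7 holds the motif too and stood at -0.02. Differences between these genes, and any link of the motif to the size of change, were not tested. A match is a description of the letters and not evidence of binding in these cells.

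Among 15 polymerase and fork genes, 1 rose, Pold1, and 14 did not pass, where 2.99% of all genes were called higher. The median log2 fold change was 0.23, and 14 of 15 lay above 0, against 50.4% of all genes. Pold1 encodes the catalytic subunit of polymerase delta, which copies the lagging strand, and stood at 1639 and 1901 in ctrl and at 2599 and 2526 in Phf8oe. Both Phf8oe libraries were alike and clear of ctrl, so that Pold1, unlike most members, was not highest in Phf8oe replicate 2. The log2 fold change was 0.54 (SE 0.11, limma adjusted p = 0.026), or 1.45-fold. Pole, the catalytic subunit of the leading-strand polymerase epsilon, had 1035 and 850 against 969 and 1029, with overlapping groups (log2 fold change 0.09, SE 0.13). The difference between Pold1 and Pole was not tested.

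Polymerase alpha and primase start each new strand. Pola2, the accessory subunit, had 551 and 565 against 717 and 715, the Phf8oe libraries being nearly equal (log2 fold change 0.36 with an SE of 0.13, limma adjusted p = 0.118). The catalytic subunit Pola1 had 649 and 851 against 730 and 828, where the ctrl libraries spanned both Phf8oe values. Prim1, the primase that lays down the RNA primer, had 932 and 913 against 1023 and 1141 (log2 fold change 0.23, SE 0.12).

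Pcna, the sliding clamp, went from 3365 and 3273 to 3805 and 4589. The ctrl libraries were close together and both Phf8oe libraries were higher, yet the log2 fold change of 0.33 (SE 0.11) did not pass (limma adjusted p = 0.105). Of the small clamp loader subunits, Rfc4 had 734 and 712 against 937 and 901 (log2 fold change 0.35, SE 0.12), while Rfc2, Rfc3 and Rfc5 lay at 0.10, 0.18 and -0.02. Rfc5 turned to 0.02 with upper quartile scaling. Dscc1, part of the alternative clamp loader of sister chromatid cohesion, had 356 and 398 against 464 and 680, highest by far in Phf8oe replicate 2 (log2 fold change 0.58 with an SE of 0.20, limma adjusted p = 0.108).

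Enzymes that finish the lagging strand did not pass. Fen1, the flap nuclease, had 1139 and 965 against 1158 and 1563, so that replicate 1 of Phf8oe barely exceeded ctrl (log2 fold change 0.36, SE 0.16). Lig1, the ligase that seals the fragments, had 656 and 728 against 685 and 743, with overlapping groups (0.05, SE 0.13). Lig1 overlaps Zswim9 in the annotation (0.13). Rpa2, of the complex that coats exposed strands, and Tipin, a fork protection factor, lay at 0.23 and 0.30, and neither passed the test.

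**Figure D2:**
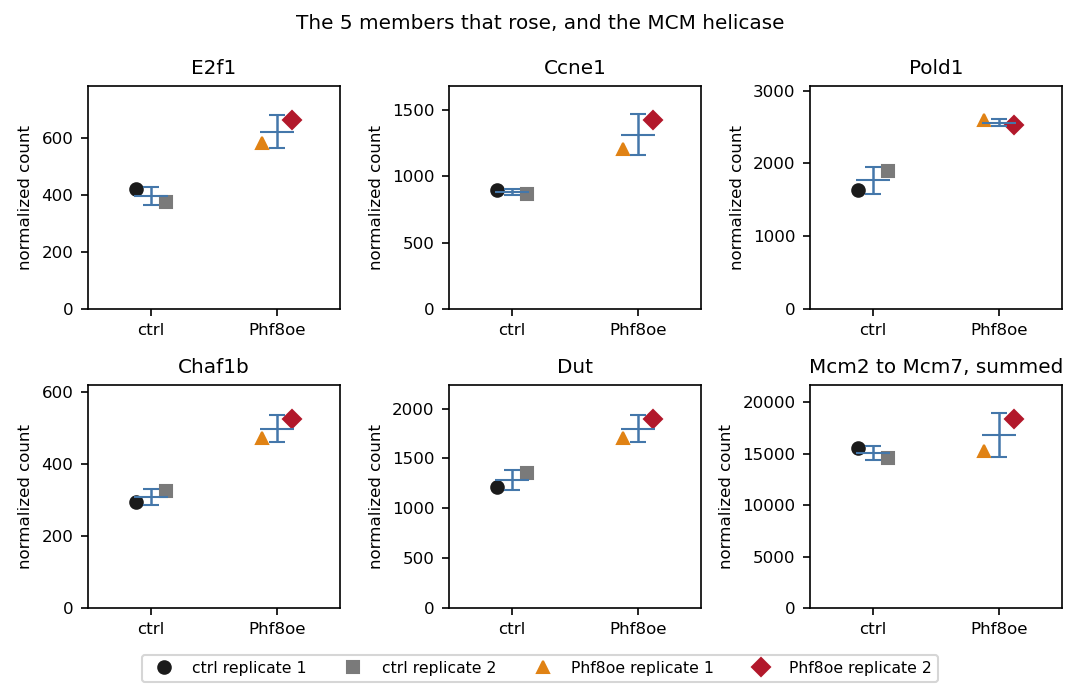
Normalized counts per library of the 5 members that rose and of Mcm2 to Mcm7 summed, with the group mean and SD (n = 2) as a bar. In the 5 genes both Phf8oe libraries lie above both ctrl libraries, whereas the MCM sum of Phf8oe replicate 1 (15302) lies between the ctrl sums (14591 and 15535).

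For nucleotide supply, 1 of 5 genes rose, Dut, where 2.99% of all genes were called higher. All 5 lay above 0, against 50.4% of all genes. Phf8oe replicate 2 was the highest library in each, against 25.8% of all genes. Dut, the dUTPase that keeps uracil out of DNA, stood at 1212 and 1356 in ctrl and at 1706 and 1894 in Phf8oe. The groups were well apart, with a log2 fold change of 0.49 (SE 0.12, limma adjusted p = 0.0386), or 1.4-fold. Tk1, the thymidine kinase of cycling cells, had 1952 and 2269 against 2658 and 3119. It just missed the threshold, with both Phf8oe libraries higher (log2 fold change 0.45 with an SE of 0.12, limma adjusted p = 0.0569), and was called with upper quartile scaling. The ribonucleotide reductase subunits moved less. Rrm1 had 2789 and 2860 against 2955 and 3261 (0.14, SE 0.10), and Rrm2 had 999 and 1041 against 1069 and 1253 (0.18, SE 0.12). Rrm2 overlaps Cys1 in the annotation, and Cys1 fell (log2 fold change -1.09). Tyms, thymidylate synthase, had 175 and 187 against 185 and 217, which overlap.

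Chromatin assembly held 1 riser among 4 genes, Chaf1b, where 2.99% of all genes were called higher. This riser had the largest log2 fold change of all 44 members. Chaf1b, the middle subunit of CAF-1, the chaperone that places new histones behind the fork, went from 293 and 324 to 471 and 524. The Phf8oe libraries lay close together and well above ctrl (log2 fold change 0.69 with an SE of 0.16, limma adjusted p = 0.0351), or 1.61-fold. Its partner Chaf1a, the large subunit, had 1981 and 1695 against 1880 and 1996, with overlapping groups (0.08, SE 0.12). The difference between these partners was not tested. Uhrf1, which guides maintenance DNA methylation, had 1578 and 1681 against 1808 and 2105 (0.26, SE 0.12, limma adjusted p = 0.194). Slbp, which binds the stem-loop of replication-dependent histone messages, had 1016 and 1103 against 1121 and 1273 (0.17, SE 0.12).

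Histone genes were drawn by symbol after the data were seen. Their median log2 fold change was -0.00483 over 23 genes, of which 1 rose (Hist3h2ba, log2 fold change 0.50) and none fell. Many are near-identical copies whose reads cannot be placed with certainty, and most lack a poly(A) tail, and the sources used here do not give the RNA selection.

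Among the 5 genes of E2F control, E2f1 and Ccne1 rose and 3 did not pass, where 2.99% of all genes were called higher. E2f1, the activator at the head of this program, stood at 419 and 375 in ctrl and at 581 and 663 in Phf8oe. All Phf8oe values exceeded all ctrl values, and the log2 fold change was 0.65 (SE 0.15, limma adjusted p = 0.0367), or 1.56-fold. E2f2, a second activator, had 175 and 236 against 268 and 278, where the ctrl libraries differed more than the Phf8oe libraries (0.42, SE 0.20, limma adjusted p = 0.225). E2f3, the third, had 933 and 889 against 879 and 779. It was the only member whose groups did not overlap with Phf8oe lower, where 28.7% of all genes showed this, and its log2 fold change of -0.14 (SE 0.13) did not pass (limma adjusted p = 0.523).

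Cyclin E drives Cdk2 at the entry into S phase. Ccne1 went from 895 and 864 to 1206 and 1427, the ctrl libraries being close together and both Phf8oe libraries above them (log2 fold change 0.58 with an SE of 0.13, limma adjusted p = 0.0296), or 1.49-fold. Its paralog Ccne2 had 723 and 648 against 676 and 871, with overlapping groups (0.16, SE 0.16). Ccne2 overlaps Ints8 in the annotation (0.14). The difference between Ccne1 and Ccne2 was not tested.

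The promoter windows of the risers were looked at in the same way, because these 5 genes carry the calls. None of the 4 with a window (E2f1 has none) held the 8-letter motif. When the last letter of each of these motifs was dropped, leaving 7 letters, 2 of the 4 held a match, as did 25 of the 36 members and 11.4% of tested genes. Stretches of 60 bases of each follow, with the 7 matching letters in capitals, on GRCr8. The stretches of Pold1, Ccne1 and Dut end just before the gene's start, and that of Chaf1b lies further upstream. For Dut the later of its 2 starts is given, and the window at the earlier start held no match.
Pold1 (chr1:104172983-104173042, - strand): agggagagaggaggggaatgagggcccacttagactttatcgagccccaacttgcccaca
Ccne1 (chr1:99927910-99927969, - strand): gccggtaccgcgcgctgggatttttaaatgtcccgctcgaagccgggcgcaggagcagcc
Chaf1b (chr11:46670440-46670499, + strand): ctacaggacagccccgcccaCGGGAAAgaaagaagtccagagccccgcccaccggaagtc
Dut (chr3:132952839-132952898, + strand): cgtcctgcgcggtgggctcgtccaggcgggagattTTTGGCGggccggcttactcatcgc
Pold1 and Ccne1 show no match, which says only that these letters are not in their windows.

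**Figure D3:**
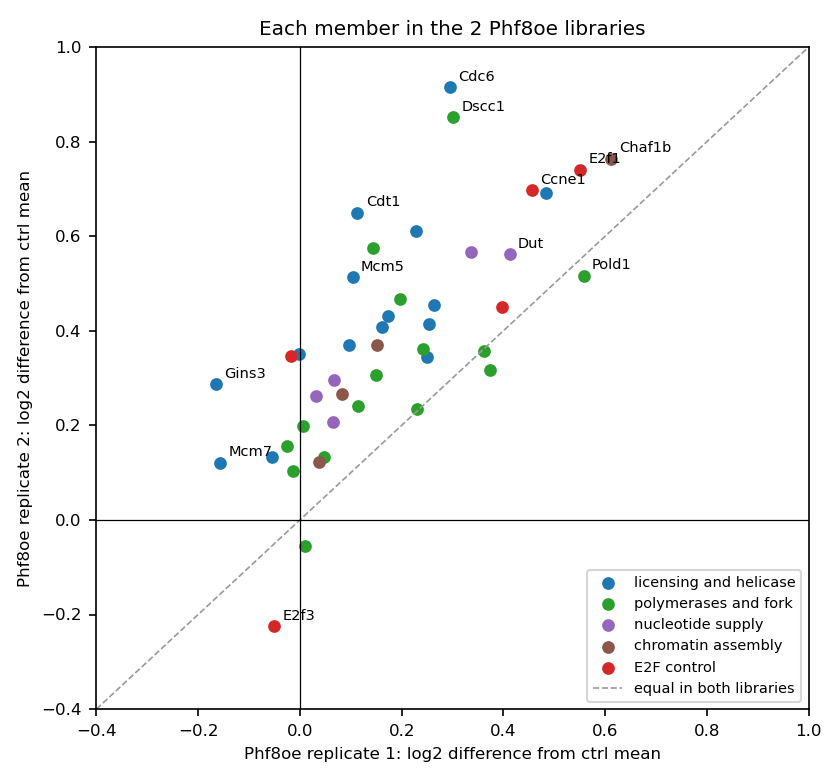
Each member's log2 difference from the ctrl mean in Phf8oe replicate 1 (x axis) and Phf8oe replicate 2 (y axis), coloured by step; both axes use the same ctrl mean. Most points lie above the dashed line of equal values, Cdc6, Dscc1 and Cdt1 farthest from it, while Pold1 lies just below it and E2f3 is below 0 on both axes.

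The shift was compared with 100 other genes of replication, nucleotide synthesis, histone handling and E2F control, of which 98 were tested. Of these 6 rose (6.12%), 1 fell and 91 did not pass, where 2.99% of all genes tested were called higher and 4.65% lower. In 51 (52%) the groups did not overlap with Phf8oe higher, against 28.9% of all genes. In 15 (15.3%) the groups did not overlap with Phf8oe lower, against 28.7% of all genes. Their median log2 fold change was 0.14, between that of the 44 members and that of all genes. By step, 1 of 17 licensing genes, 3 of 20 nucleotide genes, 1 of 16 chromatin genes and 1 of 23 E2F control genes rose. None of 22 polymerase and fork genes did. Beside each of these counts, 2.99% of all genes tested were called higher. Of the 22 polymerase and fork genes, 8 had an unadjusted p under 0.05, all of them higher. Such a p was found with Phf8oe higher in 12.7% of all genes tested, and in either direction in 26.3%.

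Nucleotide enzymes held most of these calls. Dctpp1, a pyrophosphatase that clears dCTP and modified forms of it, had 516 and 639 against 941 and 1007 (log2 fold change 0.76 with an SE of 0.14, limma adjusted p = 0.0187). Shmt1, which feeds folate units to thymidylate synthesis, went from 707 and 765 to 1175 and 1211 (0.70, SE 0.12, limma adjusted p = 0.0127). In both genes the Phf8oe libraries were nearly level with each other. Cad, the enzyme that begins pyrimidine synthesis, went from 4436 and 4774 to 6793 and 6250 (0.50, SE 0.10, limma adjusted p = 0.0235). Ppat, the first enzyme of purine synthesis, fell: ctrl held 12378 and 12896, Phf8oe 6661 and 9086 (log2 fold change -0.70 with an SE of 0.15, limma adjusted p = 0.0323). It overlaps Paics, an enzyme of the same pathway, at a log2 fold change of -0.19.

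The remaining 3 calls came from the other steps. Lrwd1, which binds the origin recognition complex, had 1491 and 1542 against 1998 and 2130 (log2 fold change 0.44 with an SE of 0.105, limma adjusted p = 0.0373). It overlaps Polr2j in the annotation, at a log2 fold change of 0.34. Nasp, a histone H1 and H3 chaperone, went from 2703 and 2742 to 3415 and 3911 (0.42, SE 0.11, limma adjusted p = 0.0442). Skp2, which marks Cdt1 and cell cycle inhibitors for destruction, went from 958 and 1045 to 1334 and 1450 (0.47, SE 0.12, limma adjusted p = 0.042). In all 3 both Phf8oe libraries exceeded both ctrl libraries.

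**Figure D4:**
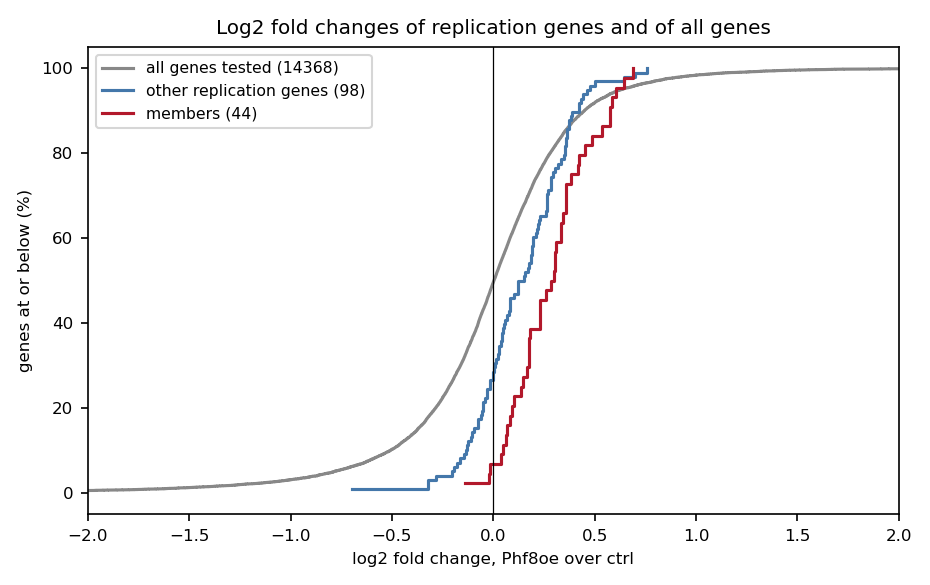
Cumulative share of genes (y axis, %) by log2 fold change of Phf8oe over ctrl (x axis, cropped at -2 and 2) for the 44 members, the 98 other replication genes and all 14368 genes tested. The medians are 0.29, 0.14 and 0.00313, and no member lies beyond 0.69.

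Of 10 tested markers of dividing cells, which mostly act in G2 and mitosis, 2 rose, none fell and 8 missed the threshold. Over all genes tested, 2.99% were higher and 4.65% lower. All 10 had a log2 fold change above 0, against 50.4% of all genes, with a median of 0.36. In 8 the groups did not overlap with Phf8oe higher, against 28.9% of all genes. The risers were Cdc20, an activator of the anaphase-promoting complex, and Birc5, a subunit of the chromosomal passenger complex. Cdc20 had 1638 and 1964 in ctrl and 2585 and 2744 in Phf8oe (0.57, SE 0.12, limma adjusted p = 0.026), and Birc5 had 655 and 727 against 998 and 1049 (0.57, SE 0.12, limma adjusted p = 0.0304). In both, each Phf8oe library lay well above each ctrl library. Aurkb, Ccnb1, Cdk1, Bub1, Plk1, Kif11 and Top2a lay between 0.22 and 0.47 and did not pass. Mki67, a protein of cycling cells, was lowest at 0.05 (SE 0.12), with 2697 and 3308 in ctrl and 3011 and 3169 in Phf8oe, which overlap. All 10 were lower in ctrl replicate 1 than in ctrl replicate 2, as were 21 of the 44 replication genes.

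Other features of the libraries differed between the groups beside these genes. Mitochondrially encoded genes held 3.68% and 3.62% of all values in ctrl and 5.34% and 4.76% in Phf8oe, and 38 very long messenger RNAs had a median log2 fold change of -0.28, with 9 lower and none higher. The 7 markers of mature oligodendrocytes summed to 373484 and 363111 in ctrl and 609053 and 563116 in Phf8oe (4 rose). The 5 of progenitors summed to 74255 and 75218 against 61542 and 49938 (1 fell), and Ptprz1 and Pdgfra made up most of these sums. The progenitor markers Gpr17 (log2 fold change 0.38) and Cacng4 (0.26) went the other way, with overlapping groups. Astrocyte markers, 7 of 8 tested, summed to 127438 and 140368 against 81665 and 81634 (2 rose, and Gfap, which made up most of the ctrl sums, fell by 2.46 on the log2 scale), and neuronal markers, 7 of 8 tested, to 28780 and 23000 against 15837 and 16503 (1 fell). Fibroblast and pericyte markers, 2 of 8 tested, summed to 485 and 498 against 232 and 300 (1 rose, 1 fell). For microglia (3 of 8 tested) and endothelium (2 of 5) the sums lay between 197 and 534 and none passed. No tested marker was at 0 in any library, and the markers not in the table were not analysed here. The part of these features in the replication genes was not tested.

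In fits that left out a ctrl library, the spread between replicates came from the Phf8oe pair alone, and few of all genes were called. These fits therefore cannot show whether the 5 calls depend on a ctrl library. Without ctrl replicate 1, or without ctrl replicate 2, none of the 5 members passed, where 0.00696% and 0.292% of all genes were called higher. The log2 fold changes of the 5 stayed between 0.41 and 0.76 with any 1 library left out. Next, the alternatives that kept every library were compared, apart from a crossed pairing chosen after seeing the data. The limma adjusted p was lowest with upper quartile scaling and highest with no mean-variance trend. It ranged from 0.021 to 0.151 for Pold1, 0.0243 to 0.15 for Ccne1 and 0.0297 to 0.116 for Chaf1b. For E2f1 the range was 0.0302 to 0.136, and for Dut 0.0308 to 0.165.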

How the data were processed

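The authors deposited 1 value per gene for each of 2 ctrl and 2 Phf8oe libraries. Reads were paired, 150 bases long, per the labels. The submitters' processing notes list STAR 2.5.2b, Trimmomatic 0.36, bcl2fastq 2.20 and DESeq2, and the builds rn6 and Rnor_6.0. The sources used here do not name the gene counter or its use of strand, so overlapping genes may share reads. The deposited signal, called raw by the labels, is a rounded normalized count: of 85 whole numbers that scaled reads would skip in Phf8oe replicate 2, 85 were absent. From that spacing 1 read was worth 0.8445, 1.0176, 0.9548 and 1.4159 (ctrl 1, ctrl 2, Phf8oe 1, Phf8oe 2), and read numbers were estimated with it. No count model was therefore applied. limma 3.58.1 (R 4.3.3) compared log2(value + 1) in the 14368 genes with at least 10 in at least 2 libraries. Group was the only term, and variances were moderated with a trend and robustly, with 2 residual degrees of freedom and 6.99 prior ones (median). Tests were two-sided with Benjamini-Hochberg adjustment, and the procedure was tested on simulated data. Alternatives changed the scaling, filter, pseudocount, variance model, replicate block and libraries. The text names all 44 members, the called genes among the other replication genes, and set cell cycle and lineage genes. Members and lists were chosen with earlier results of these data known. Other steps ran in Python 3.11.15 (pandas 2.3.3, numpy 2.4.6).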

Additional observations from a re-analysis of the deposited data

How the results depend on the processing

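The same 5 members, and no other, were called with limma-voom on estimated reads, one library total, no filter, a floor of 50 in all libraries of either group, and pseudocounts of 0.5 and 8; upper quartile scaling added Tk1 (6), and moved all genes to 614 higher and 598 lower, against 430 and 668. Without robust moderation 3 members (Ccne1, Chaf1b and Pold1), 3 other replication genes and 256 of all genes were called higher. With no mean-variance trend every one of these counts was 0, in both directions, although 16 members had an unadjusted p under 0.05 in the reported limma fit. With one library left out, the counts called higher ranged from 0 to 15 for members, 0 to 8 for the other replication genes and 1 to 905 for all genes, those called lower from 0 to 1 for the other replication genes and 13 to 1198 for all genes; no member was lower. For all genes the lowest counts came without ctrl replicate 1 (1 higher, 13 lower) and the highest without Phf8oe replicate 2. The median log2 fold change of the members ranged from 0.15 (without Phf8oe replicate 2) to 0.36 (without Phf8oe replicate 1).

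Deviations of same-numbered libraries had r = -0.126 across genes. With 2 libraries a group this cannot settle whether they are pairs, and the reported fit took none. With the replicate block, 0 members, 2 other replication genes and 65 of all genes were higher and 308 lower. With crossed pairing, chosen after seeing the data, the counts were 11, 13, 1056 and 1298. The sign turned in members near 0: with upper quartile scaling Mcm7 (0.0245) and Rfc5 (0.0197). With 1 library left out, log2 fold changes that crossed 0 ranged from -0.157 to 0.121 for Mcm7, from -0.0745 to 0.0289 for Rfc5, from -0.165 to 0.287 for Gins3, from -0.13 to 0.26 for Pola1, from -0.0292 to 0.121 for Lig1, from -0.0557 to 0.134 for Mcm4, from -0.0517 to 0.232 for Pole, from -0.0323 to 0.193 for Chaf1a, from -0.00215 to 0.351 for Mcm3 and from -0.0179 to 0.347 for Ccne2. The causes were not tested. With 2 libraries a group, changes of the size seen in most members are hard to tell from replicate spread.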
